A study of Canis lupus familiaris with 4 samples.

Results

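The comparison described here sets MDCKII cells labelled as having HIF1A knocked down (KD) and kept in hypoxia against MDCKII cells labelled wild type (WT) for HIF1A and kept in normoxia. MDCKII cells are an established line of dog kidney epithelium. The pair was chosen by array title and takes 2 of the 4 Affymetrix arrays of the series, 1 for each side. Genotype and oxygen both differ between its sides, so the contributions of knockdown and hypoxia cannot be told apart within it. All cells had 24 h in normoxia and then another 24 h in the labelled condition. The arrays labelled KD normoxia and WT hypoxia complete the series with 1 array each, and they are shown beside the pair for each gene that matters. The sources used here do not give the oxygen level, how the knockdown was made, or whether it was 1 clone.

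HIF1A encodes the oxygen-regulated alpha subunit of hypoxia-inducible factor. With oxygen present, prolyl hydroxylases of the EGLN family mark the alpha protein for destruction through VHL. In low oxygen it accumulates, pairs with ARNT, and turns on genes of glucose uptake, glycolysis, pH control, mitochondrial turnover and secreted factors such as adrenomedullin and VEGFA. Oxygen acts on HIF1A largely at the protein, which an mRNA array does not measure.

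HIF1A, the targeted gene, read 625 in the array labelled KD hypoxia, 3435 in KD normoxia, 675 in WT hypoxia and 3651 in WT normoxia, as deposited intensity. Both arrays labelled hypoxia were low and both labelled normoxia were high, whatever the genotype label. A second HIF1A probe set showed the same split, with 21.6 labelled KD hypoxia, 155 KD normoxia, 27.6 WT hypoxia and 135 WT normoxia. Its values in both arrays labelled hypoxia lie below the floor given in the next paragraph. HIF1A was low in KD hypoxia and high in WT normoxia, as those 2 labels say, and went against the genotype labels of the other 2 arrays. Differences below are log2(intensity + 16) of the array labelled KD hypoxia minus that of the array labelled WT normoxia, and they do not change if the labels of the other 2 arrays are exchanged. For HIF1A that difference was -2.52.

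Of 15115 genes with a probe set, 9834 reached a floor in at least 1 of the 4 arrays; the floor is 5.96 on the log2 scale, or an intensity of 46.3, which is the median over all values. Array medians lay between 45.6 and 47.1, and the 2 arrays of the pair had a Pearson's r of 0.985 over all probe sets, within the range of all pairs of arrays (0.982 to 0.987). With 1 array per side no difference has a replicate check, and precision is limited by the number of arrays. The epithelial markers KRT18 (14418 in KD hypoxia, 13959 in WT normoxia), EPCAM (11319 and 9356) and KRT7 (8374 and 8036) were bright in both arrays. The tubule markers PAX2 (1 and 11.2) and PAX8 (4.54 and 9.43) and the adherens junction cadherin CDH1 (41.1 and 33.8) lay below the floor. A probe set below the floor does not by itself show that the mRNA is absent. Of the markers of other cells, 2 of 10 fibroblast, 4 of 9 endothelial, 6 of 11 leukocyte and 2 of 8 proximal tubule or podocyte genes reached the floor in any array. Their summed intensities were 190.4 and 236.2, 378.1 and 433.9, 563.6 and 504.0, and 571.6 and 529.0 in KD hypoxia and WT normoxia, against 44260 and 43200 for the kidney tubule epithelium list. COL1A1 and PECAM1, defining markers of fibroblasts and endothelium, were below the floor in both arrays of the pair.

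In the array labelled KD hypoxia, 100 of 9834 genes (1.02%) exceeded the array labelled WT normoxia by 2-fold or more, and 76 (0.773%) fell short of it by as much. Of the higher genes 73 were above the floor in both arrays, as were 31 of the lower genes. With values below the floor set to the floor, 79 and 37 genes remained past 2-fold. At 4-fold or more there were 8 higher and 7 lower genes. The median difference over all genes was near 0, and the middle 95% of differences ran from -0.69 to 0.75. Among the genes past 2-fold, 59 had 85 further probe sets at or above the floor, and 117 had none. Of the 85, 74 had the sign of the main probe set and 0 lay at 0.5 or more in the opposite direction. With the sign of the main probe set, 55 differed by at least 0.5 and 38 by at least 2-fold. An additive limma model of genotype and oxygen over the 4 arrays, whose sum of both terms equals this difference, called 263 genes higher (2.67%) and 176 lower (1.79%) at a Benjamini-Hochberg adjusted p under 0.05. It includes 79 of the 100 higher and 39 of the 76 lower genes. Below, a gene rose or fell only where this model called it. Its p-values rest on 1 residual degree of freedom and a prior of 8.11 degrees of freedom shared across genes, so they do not measure the spread between cultures. The residual is the difference between the oxygen responses of the arrays labelled KD and those labelled WT. A gene whose responses differ gets a wider SE, so a missing call does not mean a small difference in the pair. Without the intensity trend of that prior 0 genes were called, with an unadjusted p under 0.05 for 1523 genes, so every call below ends under that setting. Without the floor the model called 4 genes higher and 5 lower.

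**Figure D1:**
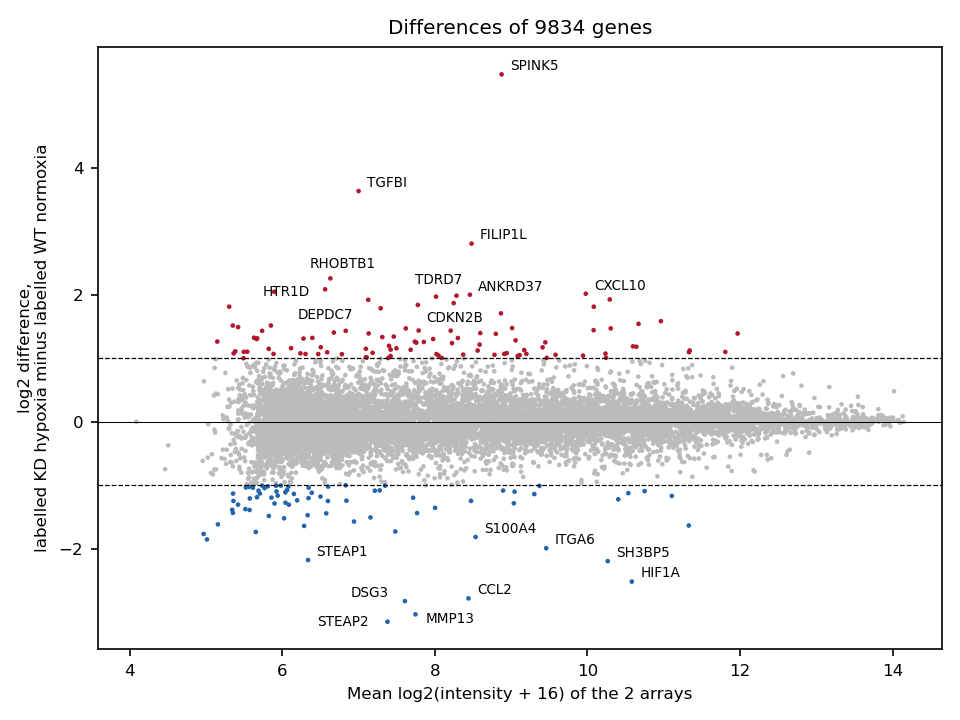
Log2 difference (labelled KD hypoxia minus labelled WT normoxia) of 9834 genes against the mean log2(intensity + 16) of the 2 arrays, 1 point per gene. Red points are at least 2-fold higher, blue points at least 2-fold lower and dashed lines mark 2-fold, with SPINK5 (5.47) and FILIP1L (2.81) farthest up and MMP13 (-3.03) and DSG3 (-2.82) farthest down among the genes above the floor in both arrays; TGFBI and STEAP2 have 1 array below it, so their vertical place is not measured.

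SPINK5, a serine protease inhibitor of stratified epithelia, read 3110.2 in the array labelled KD hypoxia, 33.0 in KD normoxia, 3751 in WT hypoxia and 54.5 in WT normoxia. Both arrays labelled hypoxia were high, with no overlap with the normoxia arrays. It rose by 5.47 (limma SE 0.15, adjusted p = 3.71e-07), the largest difference of any named gene. FILIP1L, a filamin A interacting protein, read 929 in KD hypoxia, 266 in KD normoxia, 533 in WT hypoxia and 119 in WT normoxia. The 2 arrays of the pair were its highest and its lowest, and it rose by 2.81 (limma SE 0.16, adjusted p = 3.53e-05). EFEMP1, a fibulin of the extracellular matrix, rose by 1.98, with 604 in KD hypoxia, 84.2 in KD normoxia, 671 in WT hypoxia and 141 in WT normoxia. ANKRD37, a known HIF target, followed another order: 688 in KD hypoxia and 766 in KD normoxia, against 198 in WT hypoxia and 160.0 in WT normoxia. It was high in both arrays labelled KD and rose by 2.00 in the pair, and a second ANKRD37 probe set differed by 1.61.

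TDRD7, a Tudor domain protein of RNA granules, rose by 1.97, with 497 in KD hypoxia, 261 in KD normoxia, 342 in WT hypoxia and 115 in WT normoxia. CDKN2B, the cell cycle inhibitor p15, rose by 1.84, with 399 in KD hypoxia, 196 in KD normoxia, 267 in WT hypoxia and 100.0 in WT normoxia. For both genes KD hypoxia was the highest and WT normoxia the lowest array. DEPDC7 (1.92), the immunoglobulin family member IGSF23 (1.87) and the plasminogen receptor PLGRKT (1.71) also rose, though another IGSF23 probe set differed by 0.51. LETM2 rose by 1.79 on its main probe set, while other LETM2 probe sets differed by 0.39 and 0.11. GLRX, the thiol-reducing enzyme glutaredoxin, rose by 1.44 on its main probe set and was among the genes with the smallest limma p-values. Other GLRX probe sets differed by 1.30 and, with the opposite sign, by -0.27.

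MMP13, a collagenase, read 59.1 in the array labelled KD hypoxia, 1242 in KD normoxia, 58.2 in WT hypoxia and 598 in WT normoxia. The desmosomal cadherin DSG3 read 57.3 in KD hypoxia, 542 in KD normoxia, 60.8 in WT hypoxia and 503 in WT normoxia. ITGA6, the laminin-binding integrin alpha 6 that anchors epithelia to their basement membrane, read 337 in KD hypoxia, 1276 in KD normoxia, 331 in WT hypoxia and 1389 in WT normoxia. All 3 genes were low in both arrays labelled hypoxia and high in both labelled normoxia, with MMP13 and DSG3 close to the floor in the low arrays. In the pair MMP13 fell by 3.03 (limma SE 0.28, adjusted p = 0.000974), DSG3 fell by 2.82 (SE 0.17, adjusted p = 4.81e-05) and ITGA6 fell by 1.99 (SE 0.13, adjusted p = 0.000105). Further ITGA6 probe sets differed by -1.95, -2.50 and -0.42.

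S100A4, a calcium-binding protein of motile cells, fell by 1.81, with 182 in KD hypoxia, 1113 in KD normoxia, 144 in WT hypoxia and 679 in WT normoxia. The RNA-editing enzyme APOBEC1 fell by 1.73, and the lung surfactant protein SFTPD by 1.44 and surfactant-associated SFTA2 by 1.51. SH3BP5, which binds SH3 domains, fell by 2.19 on its main probe set, with 560.0 in KD hypoxia, 2023 in KD normoxia, 679 in WT hypoxia and 2619 in WT normoxia. Another SH3BP5 probe set above the floor differed by 0.18, so the direction depends on the probe set. EPS8L1, a relative of the actin regulator EPS8, fell by 1.57 on its main probe set, and its other probe sets were below the floor in both arrays.

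**Figure D2:**
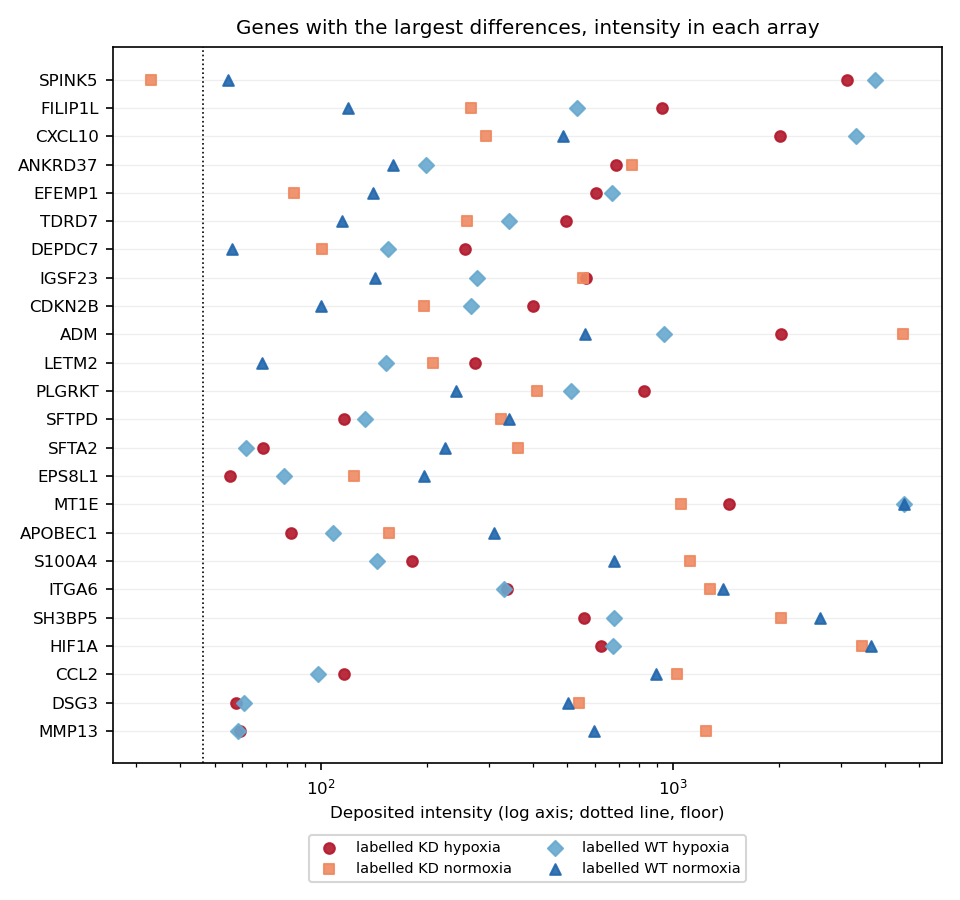
Deposited intensity (log axis) of the genes that differed most in the pair, shown for each of the 4 arrays, 1 point per array, labelled KD hypoxia, KD normoxia, WT hypoxia and WT normoxia. For SPINK5, MMP13 and DSG3 the arrays split by oxygen label, for ANKRD37 by genotype label, and for FILIP1L, TDRD7 and CDKN2B labelled KD hypoxia is highest and labelled WT normoxia lowest.

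Several large differences had 1 array of the pair below the floor, so their folds are lower bounds against the floor. TGFBI, a matrix protein induced by TGF-beta, read 435 in KD hypoxia, 67.2 in KD normoxia, 210.2 in WT hypoxia and 20.4 in WT normoxia, and was at least 9.39-fold higher in KD hypoxia than in WT normoxia. RHOBTB1 (at least 4.34-fold), the serotonin receptor HTR1D (at least 3.86-fold), the prohormone-processing carboxypeptidase CPE (at least 2.60-fold) and the metalloprotease ADAMDEC1 (at least 2.53-fold) were higher too, and limma called all of these. Another RHOBTB1 probe set that reached the floor differed by 0.72. APOE, the lipid carrier, was at least 2.43-fold higher, with a limma adjusted p of 0.0842. STEAP2, a metalloreductase that reduces iron and copper for uptake, read 40.0 in KD hypoxia, 582 in KD normoxia, 43.9 in WT hypoxia and 480.0 in WT normoxia. It was at least 10.4-fold lower in KD hypoxia than in WT normoxia, and other STEAP2 probe sets differed by -1.35 and -1.78. Its relative STEAP1 was at least 3.37-fold lower, with 22.1 and 19.9 in KD hypoxia and WT hypoxia, against 206 and 156 in KD normoxia and WT normoxia. MCUB, an inhibitory subunit of the mitochondrial calcium uniporter (at least 3.05-fold), the transporter ABCA8 (2.63), ZNF532 (2.60) and ARHGEF38 (2.55) were also lower by at least those folds, and limma called all 6 lower genes. Another MCUB probe set that reached the floor differed by -0.56.

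Among HIF subunits HIF1A alone was called. EPAS1, which encodes HIF-2alpha, read 62.6 in KD hypoxia, 33.5 in KD normoxia, 39.2 in WT hypoxia and 54.2 in WT normoxia, just around the floor, with a difference of 0.16. The partner subunits ARNT (82.8 in KD hypoxia, 83.2 in WT normoxia) and ARNT2 (70.5 and 59.8) differed by -0.01 and 0.19. Of 12 oxygen sensors and HIF regulators, 5 were higher and 7 lower, and limma called 0. The prolyl hydroxylase EGLN1 differed by 0.14, and its relative EGLN3 was below the floor in both arrays of the pair.

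Of 24 measured genes of glucose uptake and glycolysis, 16 were higher and 8 lower in KD hypoxia than in WT normoxia. Their median was 0.11, against a median near 0 over all genes. Limma called 0 of the 21 it tested, against 2.67% of all genes called higher and 1.79% lower. ALDOC, an aldolase, read 773 in KD hypoxia, 2031 in KD normoxia, 394 in WT hypoxia and 453 in WT normoxia, a difference of 0.75 (limma adjusted p = 0.221). PFKL, the liver phosphofructokinase, differed by 0.59 and GPI, glucose-6-phosphate isomerase, by 0.57. PGK1 (0.35), ALDOA (0.30), LDHA (0.26), ENO1 (0.20), HK2 (0.08), GAPDH (0.02) and the glucose transporter SLC2A1 (-0.09) lay closer to 0. PDK1, the kinase that holds pyruvate out of the mitochondrial acetyl-CoA pool, read 927 in KD hypoxia, 3568 in KD normoxia, 455 in WT hypoxia and 488 in WT normoxia. The difference of the pair was 0.90 (limma adjusted p = 0.319), and the array labelled KD normoxia was far above the other 3, as it was for ALDOC. With KD normoxia apart like this the additive model's SE is wide. A missing call for ALDOC and PDK1 thus does not mean a small difference. Of the glycogen enzymes UGP2, which makes UDP-glucose, fell by 0.77.

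Hypoxia-induced intracellular factors numbered 24, with 16 higher, 8 lower and a median of 0.30. Limma called 5 of the 21 it tested higher and 1 lower, against 2.67% and 1.79% of all genes, and 1 of the 5, P4HA2, lies on the chromosome that carries CDKN2B, described below. Beside ANKRD37, NARF rose by 0.89, the collagen-modifying hydroxylases PLOD1 and P4HA2 by 0.73 and 0.60, and the repressor BHLHE40 by 0.49. Ceruloplasmin, the ferroxidase CP, fell by 0.96, with 680.4 in KD hypoxia, 1813 in KD normoxia, 470.2 in WT hypoxia and 1334 in WT normoxia. CP is a secreted protein, so the name of this list does not hold for it. NDRG1 (0.95, adjusted p = 0.058) and the prolyl hydroxylase subunit P4HA1 (0.92, adjusted p = 0.0714) missed the limma threshold. The mitophagy receptor BNIP3L differed by 0.35 and the histone demethylase KDM3A by 0.25.

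Of 16 hypoxia-induced secreted and surface factors 9 were higher and 7 lower, with a median of 0.12. ADM, the vasodilator peptide adrenomedullin, read 2017 in KD hypoxia, 4486 in KD normoxia, 941 in WT hypoxia and 563 in WT normoxia. The pair's 2 arrays differed by 1.81, with a limma adjusted p of 0.0584. ADM differed by -1.15 for KD hypoxia minus KD normoxia and by 0.72 for WT hypoxia minus WT normoxia. These unlike responses widen the model's SE, which was 0.45. ANGPTL4, an inhibitor of lipoprotein lipase, rose by 1.43, with 171 in KD hypoxia, 144 in KD normoxia, 99.4 in WT hypoxia and 53.4 in WT normoxia. Other ANGPTL4 probe sets differed by 1.65 and 0.12. STC1, the glycoprotein stanniocalcin, fell by 1.28, with 320.4 in KD hypoxia, 623 in KD normoxia, 427 in WT hypoxia and 803 in WT normoxia. VEGFA (2379.5 in KD hypoxia, 2326 in WT normoxia) and CA9 (105 and 112), both common markers of hypoxia, differed by 0.03 and -0.09. Of 59 genes of the glycolysis, pyruvate dehydrogenase and hypoxia response lists above the floor in all 4 arrays, 41 were higher and 18 lower in KD hypoxia than in WT normoxia. The highest of the 4 arrays was KD normoxia for 37 of them, KD hypoxia for 9, WT hypoxia for 9 and WT normoxia for 4. The like counts over all genes are not given here, so these counts have no background share. These lists too were written with results of these arrays known.

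**Figure D3:**
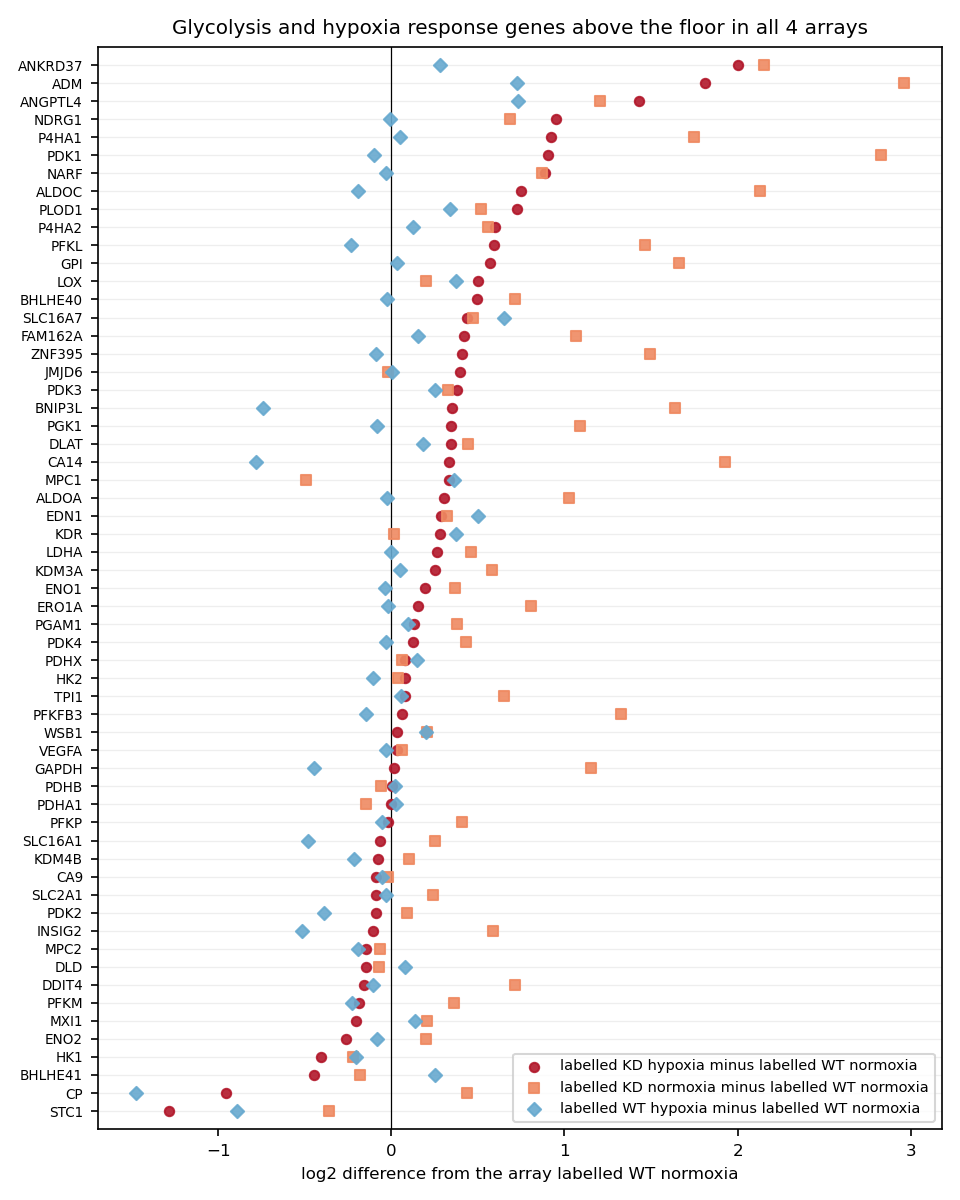
Log2(intensity + 16) of these 59 genes in the arrays labelled KD hypoxia, KD normoxia and WT hypoxia, each as the difference from the array labelled WT normoxia, 1 point per array. ADM, PDK1 and ALDOC lie highest in the array labelled KD normoxia, while VEGFA and CA9 lie near 0 in every array.

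The chemokines moved in both directions. CCL2, a monocyte attractant, read 117 in KD hypoxia, 1025 in KD normoxia, 98.2 in WT hypoxia and 895 in WT normoxia. CXCL10, an interferon-induced T cell attractant, read 2013 in KD hypoxia, 294 in KD normoxia, 3304 in WT hypoxia and 486 in WT normoxia. Both split by the oxygen label in opposite directions: CCL2 fell by 2.78 (limma adjusted p = 3.29e-05) and CXCL10 rose by 2.02 (limma adjusted p = 4.81e-05). CCL20, which attracts lymphocytes to epithelia, fell by 0.75 and CXCL16 by 0.63. The neutrophil attractant CXCL8 was below the floor in both arrays of the pair, and listed at 1 in KD hypoxia. CCL7, close to CCL2 in sequence and function, was at least 1.75-fold lower, with 30.0 in KD hypoxia and 81.1 in WT normoxia.

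The interferon-stimulated genes had a median of 0.24 over 34 measured members, with 25 higher and 8 lower, and limma called 10 of the 32 it tested higher and 0 lower, against 2.67% and 1.79% of all genes. The list was written with results of these arrays known. Those that rose were PARP14 (1.21), IFI44L (1.19), MX2 (0.89), USP18 (0.80), ISG15 (0.76), DTX3L (0.76), IFI44 (0.75), MX1 (0.74), IFIH1 (0.66) and OAS1 (0.60). IFI44L read 2322 in KD hypoxia, 1533 in KD normoxia, 2027 in WT hypoxia and 1011 in WT normoxia. PARP14, a mono-ADP-ribosyltransferase, read 570.0 in KD hypoxia, 405 in KD normoxia, 402 in WT hypoxia and 236 in WT normoxia. In both genes KD hypoxia was the highest and WT normoxia the lowest array. ISG20, an exonuclease, differed by -0.70, with 195 in KD hypoxia, 971 in KD normoxia, 152 in WT hypoxia and 326 in WT normoxia (limma adjusted p = 0.276).

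IDO1, the interferon-induced enzyme that starts tryptophan breakdown, read 6471 in KD hypoxia, 829 in KD normoxia, 10053 in WT hypoxia and 2461 in WT normoxia. It split by the oxygen label and rose by 1.39 in the pair. Its other probe sets differed by 1.91 and 1.59. Its relative IDO2 differed by -0.50, with 904 in KD hypoxia and 1288 in WT normoxia (limma adjusted p = 0.0576). Of 29 measured genes of the NF-kappaB pathway and cytokine list 10 were higher and 19 lower (median -0.11). Limma called 0 of the 16 it tested. Among the 13 genes of this list above the floor in both arrays 4 were higher and 9 lower.

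Matrix genes were higher as far as they were called. Of 34 measured extracellular matrix genes 18 were higher and 16 lower, with a median of 0.09. Limma called 8 of the 23 it tested higher and 0 lower, against 2.67% and 1.79% of all genes. Like the other lists, this list was written with results of these arrays known. Of the 23, 1 gene, TGFBI, lies on the chromosome that carries CDKN2B, described below. Beside TGFBI and EFEMP1 the 8 called genes included FBLN1 (1.06), a fibulin of elastic fibres. FBLN1 read 462 in KD hypoxia, 267 in KD normoxia, 363 in WT hypoxia and 214 in WT normoxia. Other FBLN1 probe sets that reached the floor differed by 1.16 and 0.50. COL5A1, a fibrillar collagen chain, rose by 1.04 on its main probe set, and its other probe sets were below the floor in both arrays of the pair. TGF-beta and YAP targets had 18 of 27 measured genes higher and 9 lower, with a median of 0.05. Limma called 6 of the 25 it tested higher and 0 lower, against 2.67% and 1.79% of all genes, and 2 of the 25 lie on the chromosome that carries CDKN2B, described below. ANKRD1, a target of the co-activator YAP, rose by 1.47, with 2091 in KD hypoxia, 1395 in KD normoxia, 1642 in WT hypoxia and 744 in WT normoxia. ID3 (1.25) and ID1 (1.12), inhibitors of basic helix-loop-helix factors and classical targets of BMP signals, rose as well. Both had KD hypoxia as the highest array, at 1062 and 541, against 437 and 240.1 in WT normoxia.

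Among matrix proteases, PLAU, the urokinase that activates plasminogen, fell by 1.35, with 145 in KD hypoxia, 283 in KD normoxia, 184 in WT hypoxia and 395 in WT normoxia. Limma called 3 of the 13 genes of that list it tested lower and 1 higher, against 1.79% and 2.67% of all genes. TFPI2, a Kunitz inhibitor, was at least 1.64-fold lower, with 11.6 in KD hypoxia and 75.9 in WT normoxia. In the list of serine protease inhibitors and surface proteases SPINK5 was higher, as the single call in that direction. Limma called 2 of the 15 it tested lower, against 2.67% of all genes called higher and 1.79% lower. These were TFPI2 and SERPINE2 (-0.64), an inhibitor of thrombin and urokinase chosen here after its value was seen.

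Desmosome genes were mostly lower: 2 higher and 11 lower of 13 measured, with a median of -0.29. DSG3 was the 1 that limma called, of 9 tested, against 1.79% of all genes called lower. Among the 9 above the floor in both arrays 2 were higher and 7 lower, with a median of -0.12. DSC2, a desmocollin, differed by -0.40 (limma adjusted p = 0.0603). Of 13 integrins 10 were higher and 3 lower. ITGA6 was again the 1 called, of 11 tested, against 1.79% of all genes called lower. ITGB4, the beta subunit that ITGA6 pairs with in hemidesmosomes, read 2474 in KD hypoxia, 2768 in KD normoxia, 2565 in WT hypoxia and 3173 in WT normoxia, a difference of -0.36 (limma adjusted p = 0.0827). At tight junctions the pore-sealing claudin CLDN1 rose by 0.82 and the plaque protein CGN fell by 0.68. Of the epithelial to mesenchymal genes, the transcription factor SNAI2 fell by 0.92 and N-cadherin, CDH2, rose by 0.96. SNAI2 read 690.1 in KD hypoxia, 2335 in KD normoxia, 306 in WT hypoxia and 1317 in WT normoxia. Among S100 proteins and annexins limma called 0 higher and 3 lower of the 16 it tested, against 2.67% and 1.79% of all genes: S100A4, S100A16 (-1.01) and S100A14 (-0.52).

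MT1E, a metallothionein that binds zinc and copper, read 1444 in KD hypoxia, 1051 in KD normoxia, 4529.7 in WT hypoxia and 4515 in WT normoxia. It was low in both arrays labelled KD and fell by 1.63 in the pair. Metallothionein genes are near-identical in sequence, so the gene behind these probes is uncertain. NQO1, a quinone reductase under NRF2 control, fell by 0.76 with the same split, with 3541 in KD hypoxia, 2703 in KD normoxia, 6496 in WT hypoxia and 6025 in WT normoxia. In the same list thioredoxin, TXN, rose by 0.48 and NFE2L2, which encodes NRF2, by 0.45, and the list's median was -0.03, a sign that flips with the scaling. Among heat shock genes HSPH1, a disaggregase partner of HSP70, rose by 1.10, with 5231 in KD hypoxia, 4972 in KD normoxia, 3769 in WT hypoxia and 2432 in WT normoxia, while the small heat shock protein HSPB1 fell by 0.52. Of the ATF4 and amino acid stress list, the hormone FGF21 rose by 1.13 and the stress factor ATF3 by 1.04, yet 13 of its 20 measured members were lower.

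FGFBP1, a secreted carrier that releases fibroblast growth factors, read 2391 in KD hypoxia, 2953 in KD normoxia, 779 in WT hypoxia and 1045 in WT normoxia. TMEFF2, a membrane protein with follistatin and EGF-like domains, read 699.6 in KD hypoxia, 1107 in KD normoxia, 183 in WT hypoxia and 322 in WT normoxia. Both were high in the arrays labelled KD and rose in the pair, FGFBP1 by 1.18 and TMEFF2 by 1.08. Other TMEFF2 probe sets differed by 0.97 and 0.29. TMEFF1 split by the oxygen label instead and rose by 1.33, with 236 in KD hypoxia, 110.1 in KD normoxia, 205 in WT hypoxia and 84.1 in WT normoxia. The EGF receptor ligand EREG was at least 1.96-fold lower in KD hypoxia than in WT normoxia, with a limma adjusted p of 0.0504. Of the ABC transporters ABCA5 (-1.25) and the glutathione conjugate exporter ABCC1 (-1.09) fell, and ABCC4 (0.99) and the phospholipid transporter ABCB4 (0.95) rose.

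Cholesterol synthesis and uptake had 16 of 22 measured genes higher and 6 lower, with a median of 0.18. HMGCS1, an early enzyme of the pathway, rose by 0.57 and the sterol carrier STARD4 by 0.54. The lipid droplet protein PLIN2 rose by 0.89, while of its list of fatty acid genes 8 were higher and 15 lower. MAP kinase feedback and immediate early genes had 5 higher and 17 lower, a median of -0.27, and 0 calls by limma among 14 tested. DNA replication had 10 higher and 22 lower genes (median -0.07), and G2 and mitosis had 16 higher and 11 lower (median 0.11). Of the 31 and 26 genes tested limma called 1, against 1.79% of all genes called lower. This was the kinetochore gene NUF2, which fell by 0.81. The 27 oxidative phosphorylation genes lay between -0.15 and 0.19, with 0 called by limma. Of the 47 gene lists, 22 had a median above that of all genes.

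**Figure D4:**
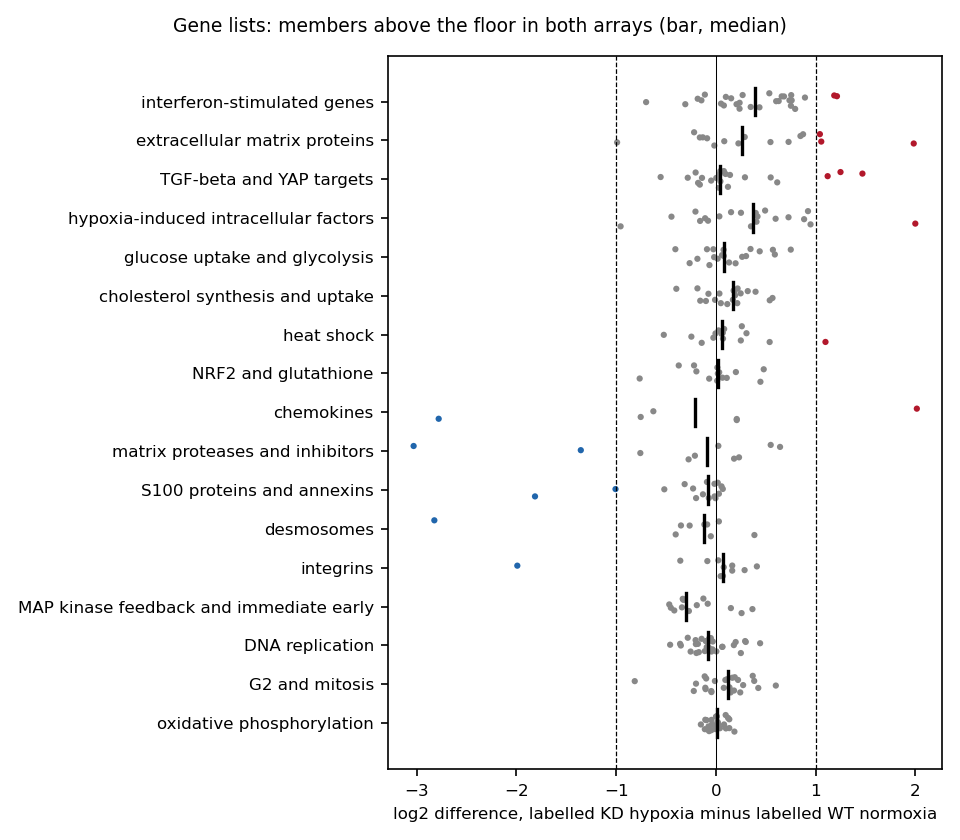
Log2 difference (labelled KD hypoxia minus labelled WT normoxia) of the members of 17 gene lists above the floor in both arrays, 1 point per gene, with the list median as a bar and 2-fold as dashed lines. Interferon-stimulated genes (median 0.39 for these members) lie mostly right of 0, desmosome genes (-0.12) have DSG3 far to the left, and oxidative phosphorylation genes (0.01) stay close to 0.

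A group of higher genes was defined by position. In the RefSeq gene table of the assembly UU_Cfam_GSD_1.0, which places genes on chromosomes, 237 genes above the floor in both arrays share a chromosome with CDKN2B. This was noticed after the values had been seen, so it is given as a description with no test. The median difference of these 237 genes was 0.36, and 79.3% of them were higher in KD hypoxia than in WT normoxia, 17 at least 2-fold and 0 at least 2-fold lower. The other 38 chromosomes with at least 20 such genes had medians from -0.09 to 0.09 and at most 5 genes at least 2-fold higher each. Genes of the chromosome that carries CDKN2B made up 24.3% of the 70 placed genes at least 2-fold higher above the floor in both arrays (17 genes), against 2.91% of the 8153 placed genes. Limma called 73 of the 266 genes tested on it higher and 0 lower, against 2.67% of all genes called higher.

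Of the genes named above, CDKN2B, TDRD7, TGFBI, TMEFF1, P4HA2 (0.60), TXN (0.48) and CA9 (-0.09) lie on this chromosome. Further members were chosen after their values were seen. NCBP1, a subunit of the nuclear cap-binding complex, read 1396 in KD hypoxia, 697 in KD normoxia, 1332 in WT hypoxia and 669.9 in WT normoxia. RNF20, a ligase that ubiquitinates histone H2B, read 1233 in KD hypoxia, 657 in KD normoxia, 1249.7 in WT hypoxia and 651 in WT normoxia. In both genes the 2 arrays labelled hypoxia were alike and the 2 labelled normoxia were alike. ERP44, a chaperone of the secretory pathway, rose by 1.07, the mitotic kinase MELK by 0.96 and RAD50, of the DNA break repair complex, by 0.93.

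Over the 237 genes the median difference was 0.38 for WT hypoxia minus WT normoxia, 0.40 for KD hypoxia minus KD normoxia, 0.01 for KD hypoxia minus WT hypoxia and -0.02 for KD normoxia minus WT normoxia. The chromosome thus stood higher in both arrays labelled hypoxia than in both labelled normoxia. In 4 successive blocks of 59 or 60 genes along the chromosome the medians of the pair were 0.19, 0.34, 0.37 and 0.64. The 145 further probe sets of its genes at or above the floor had a median of 0.33, and 87.6% of them were higher, against a median of -0.03 over 5539 such probe sets of genes on other chromosomes. With this chromosome left out, 80 genes passed 2-fold upwards and 76 downwards. Whether the number of copies of this chromosome differed between the cultures was not tested.

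**Figure D5:**
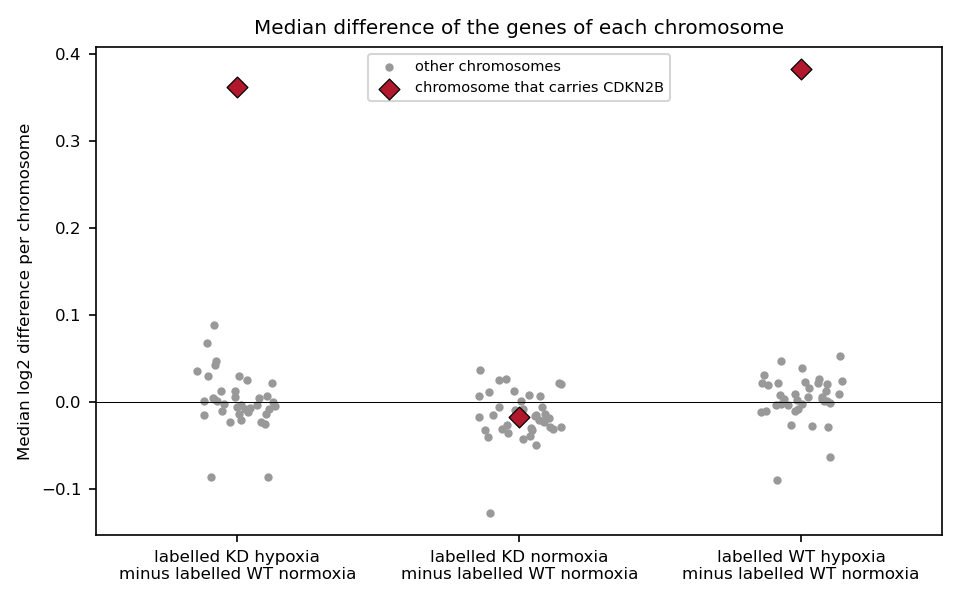
Median log2 difference of genes above the floor, per chromosome with at least 20 such genes, for the arrays labelled KD hypoxia, KD normoxia and WT hypoxia, each minus the array labelled WT normoxia; each point is 1 chromosome and the red diamonds are the chromosome that carries CDKN2B. That chromosome lies at 0.36 for labelled KD hypoxia minus labelled WT normoxia, while the other 38 lie between -0.09 and 0.09.

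The arrays labelled KD normoxia and WT hypoxia form the complementary pair, which shares no array with the pair described here. In KD normoxia minus WT hypoxia 162 genes (1.65%) were at least 2-fold higher and 98 (0.997%) lower. Of the 76 genes lower in KD hypoxia than in WT normoxia, 28 (36.8%, and 17.3% of the other list) were at least 2-fold higher in KD normoxia than in WT hypoxia, among them HIF1A, MMP13, DSG3, CCL2 and ITGA6. Of the 100 higher genes, 11 (11.2% of the other list) were at least 2-fold lower there, among them SPINK5 and CXCL10. These 7 genes split by the oxygen label as given. In both pairs 6 genes were higher and 3 lower, and the 6 include ANKRD37 and ADM, which were high in both arrays labelled KD. If the labels of the arrays labelled KD normoxia and WT hypoxia were exchanged, the splits by oxygen label named here would be splits by genotype, and the splits by genotype label would be splits by oxygen.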

How the data were processed

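Total RNA of 4 MDCKII cultures was extracted and 100 ng per sample was made into biotinylated cRNA for Affymetrix arrays, per the labels' protocols. The values are linear: the authors deposited 1 intensity per probe set. Its software and scaling: not given in the sources used here. Means without the outer 2% of values were 310.5 to 314.9 per array. Between 1065 and 1129 values per array were listed at 1.

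The scale used is log2(intensity + 16), on which changes of dim genes are understated. The platform annotation gives 1 symbol for 29254 of 42924 probe sets, several for 439 and none for 13231. A gene ID matched 27680 of them to the RefSeq table of the assembly UU_Cfam_GSD_1.0, used for names and for shared chromosomes only, since the sources used here name no build for the files. Each gene was read from its brightest probe set (mean of 4 arrays) and kept where any array reached the median of all values. Folds against an array below the floor were set against the floor.

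Differences of 2 arrays have no test. The limma 3.58.1 model (lmFit, eBayes with trend, R 4.3.3) is additive in genotype and oxygen over all 4 arrays, two-sided, Benjamini-Hochberg adjusted over 9834 genes. Tables were made with Python 3.11.15, and the steps were tested on simulated data. Other scalings, pseudocounts, floors, probe set rules and thresholds were tried.

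Members and the 52 gene lists, 5 of them cell type markers, were chosen with earlier results of these data known. Named were HIF1A, the 12 largest differences per direction above the floor in both arrays, the 6 largest bounded ones, the 6 smallest limma p-values per direction, the 4 largest of each list, and any member of a list given as a whole. Some further list members were named outside these rules, such as VEGFA, CA9, GAPDH, HK2, SLC2A1, BNIP3L, KDM3A, ITGB4, COL1A1 and PECAM1. Placeholder symbols were only counted (6 higher, 2 lower). No sequence is printed, since no sequence table was used here.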

Additional observations from a re-analysis of the deposited data

Results flagged for a closer look

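Probe sets with no gene name are not used in the comparisons above and were only counted. Of 6418 probe sets with no gene name at or above the floor, 143 differed at least 2-fold between the array labelled KD hypoxia and that labelled WT normoxia, 91 of them higher and 52 lower. That is 2.23%, against 1.79% of the named genes. The units differ, since every unnamed probe set was counted but a named gene only by its brightest probe set. No control level exists for such a count with 1 array per side.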

How the results depend on the processing

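No paired analysis was possible because each group has 1 array, and leaving out any array leaves no pair or no residual degree of freedom. The 100 higher and 76 lower genes at 2-fold became 160 and 147 with a pseudocount of 1, 49 and 24 with a pseudocount of 64, 61 and 26 where the floor was the 75th percentile, and 18 and 16 at 3-fold. They became 135 and 129 without a floor, 73 and 31 with the floor reached in both arrays, and 79 and 37 with values below the floor set to it. With the median over a gene's probe sets they were 72 and 56. Quantile, median centring and cyclic loess scaling gave 103 to 113 higher and 65 to 67 lower genes. Limma's 263 and 176 calls became 564 and 482 after quantile normalization, 4 and 5 without a floor, and 0 and 0 without the prior's trend. The cause of these shifts was not tested. With the median over probe sets SH3BP5 was at 0.35, a value that includes probe sets below the floor. Its other probe set above the floor differed by 0.18. EPS8L1 (0.19) and COL5A1 (-0.044) also differed in sign from their main probe set, but their other probe sets lie below the floor, so these values measure no direction. Under the 3 other scalings no named gene past 2-fold turned sign. Of 222 genes followed over the settings, all were marked as the same under those scalings. With the median over probe sets 50 were marked as moved and 3 as reversed. Pseudocounts of 64 and 1 had 41 and 23 marked as moved. The chromosome median stayed between 0.33 and 0.40 over its 4 alternatives. It, the choice of floor and probe set from the pair alone (97 and 71), values set to the floor, and the counts without that chromosome were chosen after seeing the data. Genes close to the floor, such as EPAS1, are limited by their signal.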
